A study of Mus musculus with 4 samples.

Results

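The receptor genes for glutamate and GABA form a set of 47 among the 21887 protein-coding genes of the RefSeq mouse gene table on GRCm38.p6, whose coordinates are those of mm10. They were chosen by gene symbol alone, and 26 encode glutamate receptor subunits (18 ionotropic, 8 metabotropic) and 21 encode GABA receptor subunits (19 of GABAA type including rho, 2 of GABAB type). All 47 were found in the table. CTCF was mapped in them by chromatin immunoprecipitation and sequencing (ChIP-seq), with 1 CTCF library from the medial ganglionic eminence (MGE) and 1 from the telencephalon of mouse embryos at embryonic day 13.5. The MGE is the ventral forebrain region where many cortical interneurons arise, and the telencephalon is the part of the forebrain to which it belongs. The labels name no genotype, strain or treatment, and describe an MGE dissection and a single-cell suspension for all samples alike. Whether the telencephalon sample held the MGE is not stated. Libraries were made with different kits (NEB ChIP-Seq for telencephalon, NEBNext Ultra II for MGE), so tissue and kit cannot be told apart. Each tissue also has an input library, which is not analysed here.

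The deposited lists give a chromosome, a start and an end for each peak, with no height, score or read count. The MGE list held 25625 peaks on the autosomes, X and Y, and the telencephalon list held 31886. Sequencing depth is unknown, and a site bound by CTCF may have stayed under a list's calling limit, so a missing peak does not show that CTCF was absent. With 1 library per tissue there is no replicate and no test between tissues. Intervals in brackets are exact 95% intervals of counting error (Clopper-Pearson for shares, Poisson for densities), and they treat peaks and genes as independent, which peaks of a single gene need not be. Peak lists hold no expression values, so the tissue labels could not be set against marker genes.

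Glutamate opens AMPA, kainate and NMDA receptors, which are cation channels built of 4 subunits, and acts more slowly through the metabotropic receptors, which couple to G proteins. GABA opens GABAA receptors, chloride channels whose subunit genes lie mostly in chromosomal clusters, and acts through GABAB receptors, dimers that couple to G proteins. GABA is the transmitter of the interneurons that the MGE produces. CTCF binds DNA through zinc fingers and, with cohesin, anchors many chromatin loops.

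The promoters of 4 members were overlapped by a telencephalon peak. They are shown because no other member promoter with a sequence was overlapped by a peak of either list. Promoter sequences came from RefSeq on GRCm38.p6 and were given for 32 of the 47 members. The 250 bases before the start are printed 5′ to 3′ on the gene's own strand, which is the minus strand in all 4, with the bases inside the telencephalon peak in capitals.
Grik4, chr9:42944372-42944621: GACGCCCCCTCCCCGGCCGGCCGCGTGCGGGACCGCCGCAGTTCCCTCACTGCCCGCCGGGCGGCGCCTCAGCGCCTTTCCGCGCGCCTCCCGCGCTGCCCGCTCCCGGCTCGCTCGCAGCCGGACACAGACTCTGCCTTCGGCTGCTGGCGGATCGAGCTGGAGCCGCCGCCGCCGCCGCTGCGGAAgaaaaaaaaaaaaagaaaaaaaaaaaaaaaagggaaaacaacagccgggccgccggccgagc
Grik2, chr10:49788755-49789004: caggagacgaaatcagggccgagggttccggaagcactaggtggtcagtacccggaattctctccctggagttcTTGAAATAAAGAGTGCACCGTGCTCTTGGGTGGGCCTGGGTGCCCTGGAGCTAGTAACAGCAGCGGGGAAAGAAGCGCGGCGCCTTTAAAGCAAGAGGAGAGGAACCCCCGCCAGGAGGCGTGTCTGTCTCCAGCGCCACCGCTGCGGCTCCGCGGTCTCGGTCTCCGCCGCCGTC
Gabra5, chr7:57510060-57510309: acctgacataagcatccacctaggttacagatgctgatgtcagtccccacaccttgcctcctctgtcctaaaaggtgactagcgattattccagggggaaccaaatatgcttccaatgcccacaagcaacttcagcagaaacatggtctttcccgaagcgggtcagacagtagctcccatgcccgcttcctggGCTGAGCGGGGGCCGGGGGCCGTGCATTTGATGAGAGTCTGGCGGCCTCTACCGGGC
Gabra2, chr5:71095850-71096099: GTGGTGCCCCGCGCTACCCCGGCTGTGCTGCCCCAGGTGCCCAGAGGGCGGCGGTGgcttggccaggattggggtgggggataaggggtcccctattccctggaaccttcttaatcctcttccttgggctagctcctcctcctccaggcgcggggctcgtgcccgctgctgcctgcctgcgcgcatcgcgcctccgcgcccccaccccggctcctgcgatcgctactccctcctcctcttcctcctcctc
In Grik4, 225 of these bases lay in an MGE peak and 188 in a telencephalon peak. In Gabra5 the MGE peak lay 16 bp downstream of the start and reached none of them, while 57 lay in the telencephalon peak. This Gabra5 start, chr7:57510059, lies inside the annotated gene (chr7:57407669-57591016) and not at its end. In Grik2 and Gabra2 no MGE peak overlapped the promoter, and 176 and 56 bases lay in a telencephalon peak.

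These promoters were searched on both strands for a short form of the CTCF motif core, the letters CC, AG and GGC in this order with 3 free bases (NNN) after CC and 2 (NN) after AG. Among all 21263 promoter windows of protein-coding genes (250 bases before to 50 after the start), 9.88% held a match. The share was 40.9% of windows overlapping an MGE peak, 33.5% of those overlapping a telencephalon peak and 7.73% of those overlapping none. Of the 39 windows of the receptor genes, 5 held a match (12.8%). Grik4 had the match gcccgctcccgg, read on the other strand, 153 bases before the start and inside the peaks of both lists. Grik2 had ccgccaggaggc 68 bases before the start, inside the telencephalon peak. Gabra5 and Gabra2 had no match to these letters in the window. A match is a description and not a mapped binding site.

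The receptor genes were long, with a median of 183 kb. A peak lay in the gene body, from annotated start to end, of 30 of the 47 in the MGE list (63.8%, 48.5 to 77.3) and of 32 in the telencephalon list (68.1%, 52.9 to 80.9). Over all protein-coding genes the shares were 31.4% in the MGE list and 39.1% in the telencephalon list. Gene length moved with this count. Of the 22 members of at least 200 kb, 19 (86.4%) held an MGE peak and 20 (90.9%) a telencephalon peak, beside 91.4% and 90.9% of 990 protein-coding genes of that length. Of the 14 members under 50 kb, 4 held a peak in each list (28.6%), beside 20.8% in the MGE list and 28.6% in the telencephalon list. Spearman's rho between gene length and body peaks over the 47 members was 0.69 in the MGE list and 0.67 in the telencephalon list. Over all protein-coding genes it was 0.51 in the MGE list and 0.53 in the telencephalon list.

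With 50 kb added on each side, the MGE list had a peak for 42 members (89.4%, background 80.3%) and the telencephalon list for 42 (89.4%, background 82.8%). These backgrounds are not matched for length. Members of at least 200 kb had 90.9% in each list, beside 97.4% (MGE) and 95.2% (telencephalon) of genes of that length. From 50 to 200 kb it was 90.9% in each list, beside 89.0% and 92.7%. Under 50 kb it was 85.7% in each list, beside 77.2% and 79.7%. A peak in this window only in the MGE list was found for 2 members (4.26%, background 6.23%), among them Gabra6. Gabrd and Grm3 had one only in the telencephalon list (4.26%, background 8.77%). Gabrg1, Gabre and Gabra3 had none in either list (6.38%, background 11.0%). In the gene body alone, only the MGE list had a peak in 2 members (background 4.45%), among them Grin2d. Only the telencephalon list had one in 4 members (background 12.1%), among them Gabrr1, Grm3 and Gabrb1. The median was 2 MGE peaks and 3 telencephalon peaks per window, the same as over all protein-coding genes, whose windows are shorter. Per Mb, member windows held 8.1 MGE and 9.3 telencephalon peaks, beside 11.7 and 16.4 in windows of all protein-coding genes. Members of at least 200 kb had a median of 3 per window in each list. Protein-coding genes of that length had 4 MGE and 5 telencephalon peaks.

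**Figure D1:**
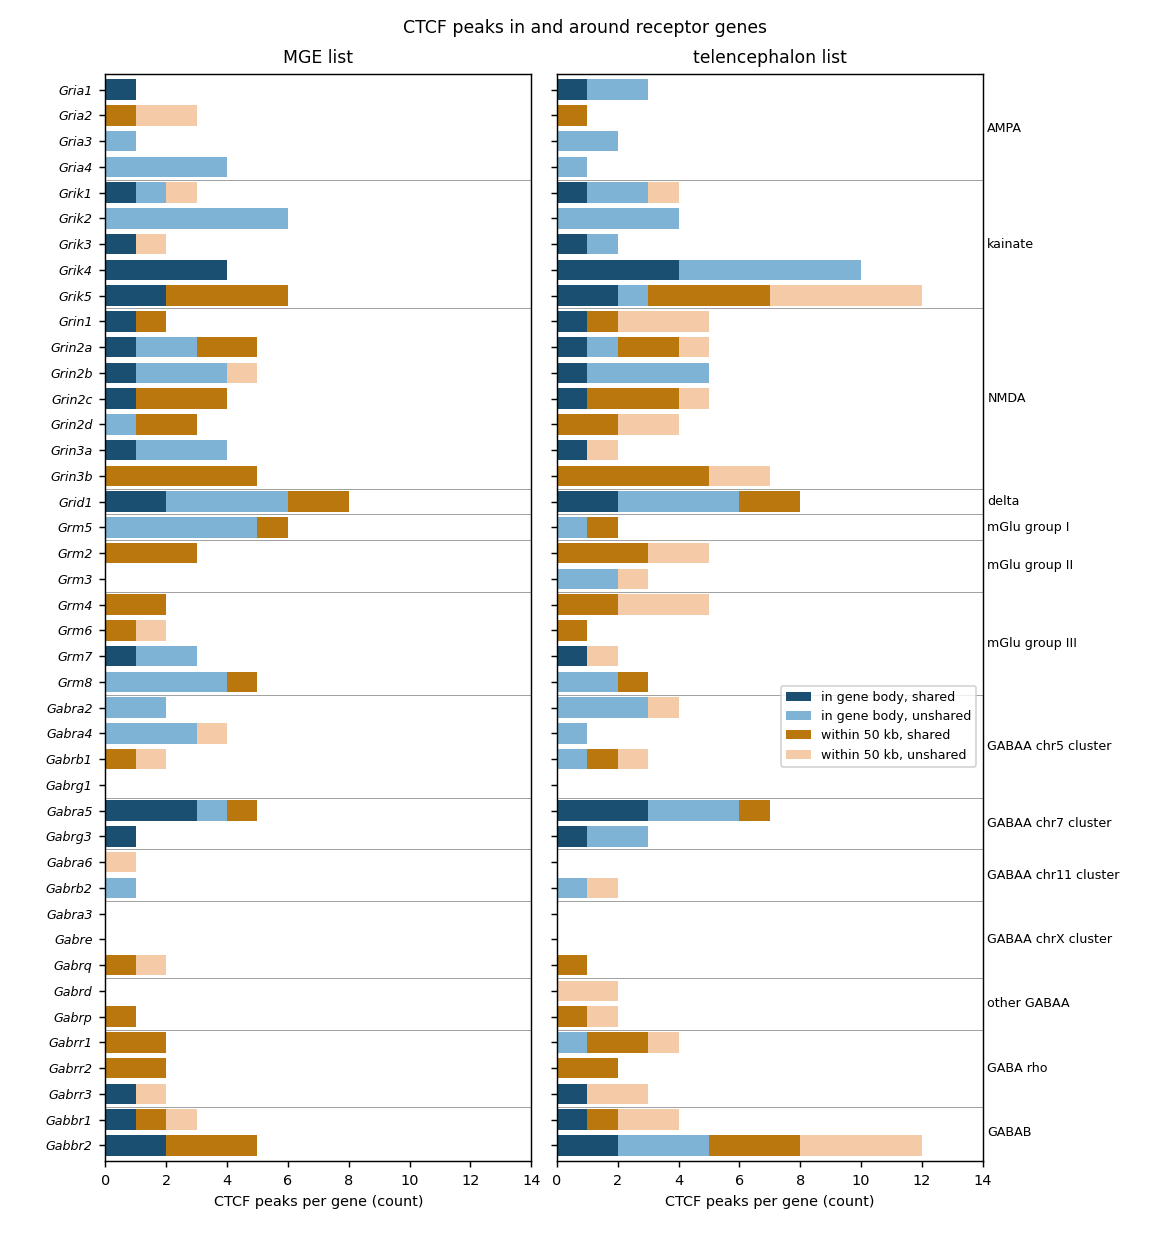
Number of CTCF peaks in the body of each of 42 receptor genes (blue) and within 50 kb of it (orange), in the MGE list (left) and the telencephalon list (right), grouped by receptor class, with dark colours for peaks shared by both lists. Grik4 had 4 body peaks in the MGE list and 10 in the telencephalon list, and Grik2 had 6 in the MGE list and 4 in the telencephalon list.

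The shared part of the peaks, those that overlap the other list by at least 1 bp, was smaller inside the receptor genes than beside them. The bodies of the 47 genes held 86 MGE peaks, of which 28 were shared (32.6%, 22.8 to 43.5), and 81 telencephalon peaks, of which 28 were shared (34.6%, 24.3 to 46.0). Over the bodies of all protein-coding genes the shared part was 65.0% in the MGE list and 46.8% in the telencephalon list. Over whole lists the shares were 58.4% in the MGE list and 47.0% in the telencephalon list. In the 50 kb on each side, 38 of 50 MGE peaks were shared (76.0%, 61.8 to 86.9), beside 72.5% around all protein-coding genes. There, 38 of 75 telencephalon peaks were shared (50.7%, 38.9 to 62.4), beside 50.8% around all protein-coding genes. In the MGE list the glutamate receptor bodies had 20 of 68 peaks shared (29.4%, 19.0 to 41.7) and the GABA receptor bodies 8 of 18 (44.4%, 21.5 to 69.2), and the GABA interval includes the 65.0% of all protein-coding gene bodies. In the telencephalon list it was 20 of 56 (35.7%, 23.4 to 49.6) for glutamate and 8 of 25 (32.0%, 14.9 to 53.5) for GABA, and both intervals include the 46.8% of all bodies. With 1 library per tissue these differences were not tested.

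Long genes in general had smaller shares than all genes, and the long receptor genes were below the long genes. The class of at least 200 kb is not fully matched for length. Its receptor genes had a median length of 411572 bp, beside 325238 bp for its protein-coding genes. The part of this gap in the shares and densities below was not tested. In the 22 members of at least 200 kb, 18 of 64 MGE body peaks were shared (28.1%, 17.6 to 40.8), beside 47.3% (45.7 to 49.0) in the 990 long genes. In the telencephalon list it was 18 of 60 (30.0%, 18.8 to 43.2), beside 41.7% (40.2 to 43.3), and these intervals overlap. Long genes in general also shared less in the body than in the flanks, where the share was 68.7% in the MGE list and 49.8% in the telencephalon list. Peak density was lower as well, with 5.84 MGE peaks per Mb (4.5 to 7.46) in long receptor genes beside 8.21 in long genes. In the telencephalon list it was 5.48 per Mb (4.18 to 7.05) beside 9.32. In the MGE list 16 of the 22 long members lay below the long-gene median of 0.794 peaks per 100 kb. In the telencephalon list 18 of 22 lay below a median of 0.895 per 100 kb.

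**Figure D2:**
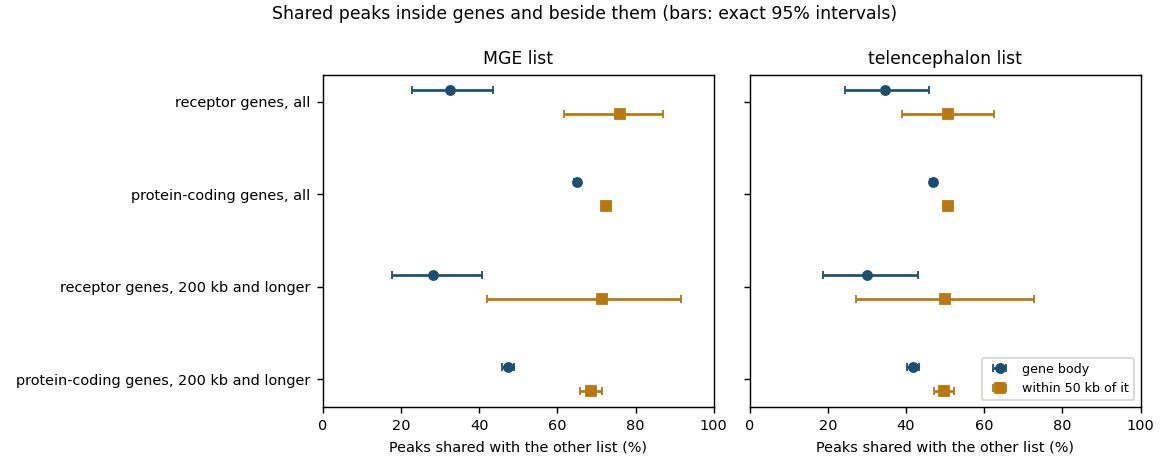
Percent of CTCF peaks that overlapped a peak of the other list, in gene bodies (blue circles) and within 50 kb of them (orange squares), for the MGE list (left) and the telencephalon list (right), with exact 95% intervals. In receptor gene bodies the share was 32.6% in the MGE list and 34.6% in the telencephalon list, beside 65.0% and 46.8% over all protein-coding gene bodies.

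Width moved with sharing. Of the 86 MGE body peaks, 35 (40.7%) had the narrowest width in that list, 244 bp, and 3 of those were shared. That width was held by 25.5% of MGE peaks in all protein-coding gene bodies and 35.6% in long gene bodies, of which 24.2% and 15.9% were shared. Of the 54 MGE body peaks no wider than the list's median of 300 bp, 8 were shared (14.8%), beside 42.0% in all protein-coding gene bodies. Of the 32 wider ones 20 were shared (62.5%), beside 85.3%. In the telencephalon list 8 of the 50 body peaks up to the median of 276 bp were shared (16.0%, beside 22.5%), and 20 of the 31 wider ones (64.5%, beside 70.9%). In the 22 long members 6 of 43 MGE body peaks up to the median width were shared (14%, 5.3 to 27.9), beside 29.3% in long genes, and 57.1% of the wider ones (34.0 to 78.2), beside 72.9%. In the telencephalon list it was 12.8% of those up to the median (4.3 to 27.4), beside 21.3%, and 61.9% of the wider ones (38.4 to 81.9), beside 67.7%. The intervals of the wider peaks include the long-gene values in each list. The part of width, depth and calling threshold in the shared share was not tested.

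**Figure D3:**
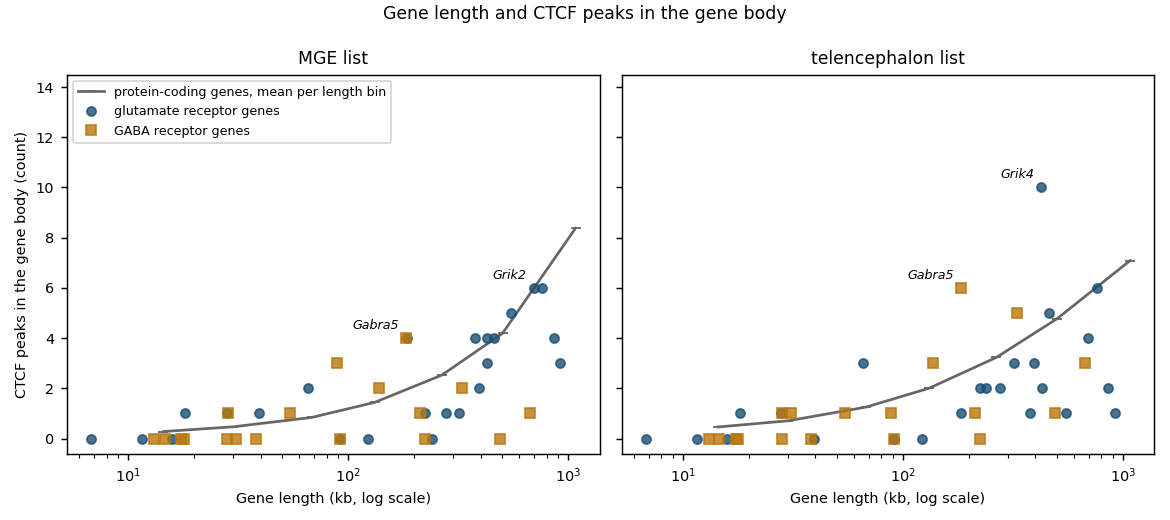
Gene length in kb (log scale) against the number of CTCF peaks in the gene body, for the MGE list (left) and the telencephalon list (right), with 42 receptor genes (glutamate as blue circles, GABA as orange squares) and the mean of all protein-coding genes in each length bin as a grey line. Protein-coding genes of at least 800 kb averaged 8.38 peaks in the MGE list and 7.09 in the telencephalon list.

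The AMPA receptor genes encode the channels of fast excitation. The bodies of these genes held 6 MGE peaks and 6 telencephalon peaks, and 1 of each was shared. Over the bodies of all 47 members the shared part was 32.6% in the MGE list and 34.6% in the telencephalon list. With 6 peaks per list the AMPA genes cannot be told apart from the set. Gria4 (chr9:4417893-4796234) had 4 peaks of the MGE list and 1 of the telencephalon list, with no overlap. Its telencephalon peak at chr9:4442968-4443255 lay between the MGE peaks at chr9:4441252-4441495 and chr9:4444787-4445174. Gria2 (chr3:80681450-80804227), whose subunit limits calcium entry, had no body peak in either list. A shared peak lay just past its upper end, at chr3:80805494-80805773 in the MGE list and chr3:80805448-80805675 in the telencephalon list. Gria1 had 1 MGE body peak, which was shared, and 3 telencephalon body peaks. Gria3, on X, had 1 MGE and 2 telencephalon body peaks, none shared.

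The kainate receptor genes held 15 MGE body peaks and 22 telencephalon body peaks, 8 of each shared, and differed widely among themselves. In Grik4 (chr9:42518182-42945000) all 4 MGE peaks were shared, and the telencephalon list held these 4 and 6 more. The peak at its promoter was among the widest near any member, 637 bp wide in the MGE list (chr9:42944397-42945033) and 630 bp in that of the telencephalon (chr9:42944434-42945063). In Grik2 (chr10:49093680-49790161) there were 6 MGE peaks and 4 telencephalon peaks and none was shared. Of these 6, 5 had the narrowest width of 244 bp, and the other, at chr10:49622892-49623377, was 486 bp wide with the nearest telencephalon peak 65372 bp away. Grik5 (chr7:25009849-25075694), in a gene-rich stretch, had 6 MGE peaks in its window, all shared, and 12 telencephalon peaks. It held the widest telencephalon peak near any member, 792 bp at chr7:24974934-24975725, whose MGE partner at chr7:24975274-24975769 was 496 bp. Further wide shared sites lay in its body at chr7:25035626-25036373 and beyond it at chr7:25082305-25082911 and chr7:25086564-25087120, given as telencephalon peaks. Another, at chr7:25105690-25106216 in the MGE list, lay inside Pou2f2. Grik3 had 1 MGE and 2 telencephalon body peaks, and the shared site was 540 bp wide in the telencephalon list (chr4:125703191-125703730). Grik1 had 2 MGE and 3 telencephalon body peaks with 1 shared.

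**Figure D4:**
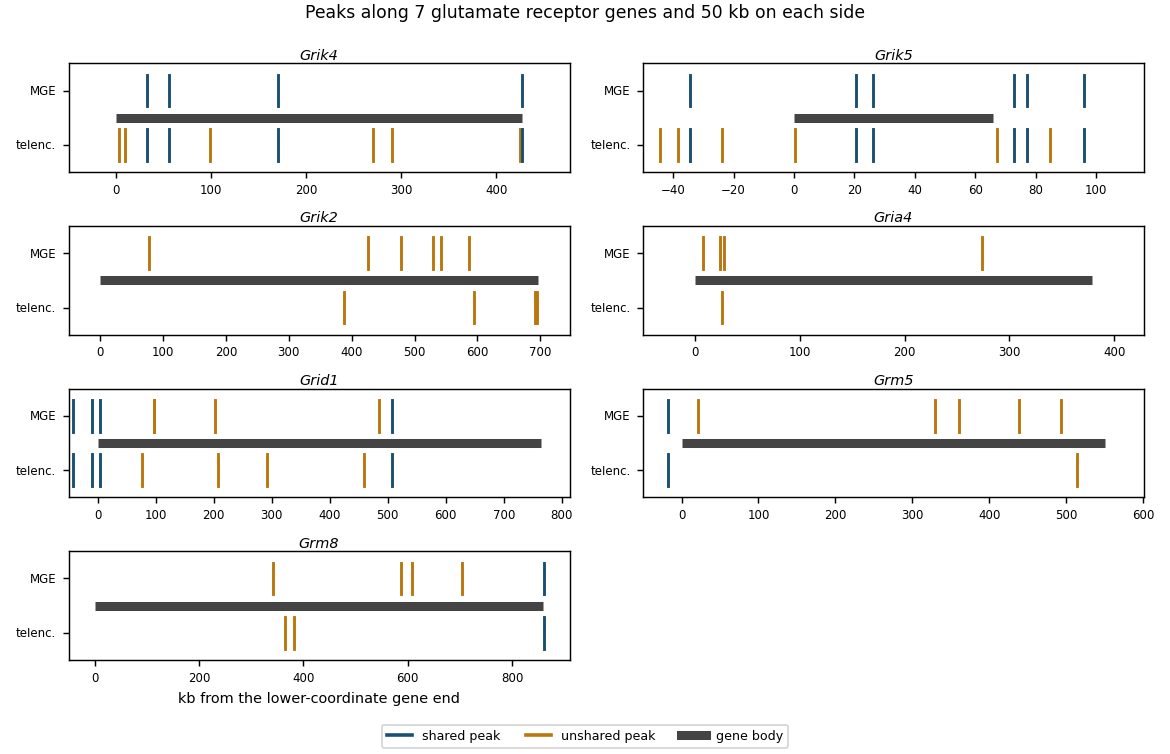
Positions of CTCF peaks along 7 glutamate receptor genes and 50 kb on each side, in kb from the gene end with the lower coordinate, with MGE peaks above the gene (grey bar) and telencephalon peaks below, shared peaks in blue and unshared in orange. All 4 MGE peaks of Grik4 have a telencephalon partner, and none of the 6 in Grik2 has.

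The NMDA receptor genes ranged in length from 6794 to 460395 bp. Grin3b (chr10:79970397-79977190), a short gene, had no body peak, but 5 MGE peaks and 7 telencephalon peaks lay within 50 kb, and all 5 of the MGE list were shared. One of these, at chr10:79925243-79925692, was among the 10 widest shared MGE peaks near any member. Grin1, the subunit that NMDA receptors need, held the widest MGE peak near any member, 686 bp at chr2:25292705-25293390, shared with a 547 bp telencephalon peak. Grin2c had 4 MGE peaks in its window, all shared, and 5 telencephalon peaks. Its body peak was 468 bp wide in the MGE list (chr11:115265343-115265810). In Grin2d the MGE peak in the body was unshared, and shared peaks lay at chr7:45872514-45872945, at an end of Kdelr1, and at chr7:45801321-45801747, inside Lmtk3. Grin2b (chr6:135713221-136173615) and Grin2a are long genes. Grin2b had 4 MGE and 5 telencephalon body peaks with 1 shared, and an unshared telencephalon peak of 502 bp at chr6:135828024-135828525. Grin2a had 3 MGE and 2 telencephalon body peaks with 1 shared. Grin3a had 4 MGE body peaks and 1 telencephalon body peak, which was shared. The 5 widest unshared telencephalon peaks near any member lay by glutamate receptor genes, whose windows held 107 of the 156 telencephalon peaks near members. With 5 peaks this is no result about glutamate receptor genes. Besides the one in Grin2b they were chr4:49627095-49627615 below Grin3a, chr10:79996264-79996763 above Grin3b at ends of Cnn2 and Abca7, and chr7:24965135-24965608 below Grik5. The last, chr7:45873260-45873718 above Grin2d, lay at an end of Kdelr1, 315 bp from the nearest MGE peak.

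Among the delta receptor genes, Grid1 (chr14:34820003-35583387) had 6 body peaks in each list, 2 of them shared.

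The metabotropic genes held 14 MGE body peaks and 7 telencephalon body peaks, and 1 of each was shared. In group I, Grm5 (chr7:87583981-88135063) had 5 MGE peaks and 1 telencephalon peak in the body, and none was shared. A shared peak lay below the lower end of Grm5 (chr7:87566530-87566895 in the MGE list). In group II, Grm2 (chr9:106644534-106656109) had 3 MGE peaks near it, all shared, and 5 telencephalon peaks. Its shared telencephalon peak at chr9:106600365-106601030 was 666 bp wide, beside 244 bp in the MGE list. Grm3 (chr5:9485236-9725352) had no MGE peak in its window, the nearest being 57324 bp away, and 3 telencephalon peaks, 2 of them in the body. In group III, Grm8 (chr6:27275121-28135146) had 4 MGE and 2 telencephalon body peaks, none shared. Grm4 (chr17:27422387-27513826) had no body peak but shared peaks above it, among them a 448 bp MGE peak at chr17:27520548-27520995. Grm7 had 3 MGE and 1 telencephalon body peaks with 1 shared. Grm6 had no body peak.

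The GABAA genes of chromosome 5, Gabrg1, Gabra2, Gabra4 and Gabrb1, spanned 1399 kb. This span held 7 MGE peaks and 7 telencephalon peaks, none shared. In each list 5 of these lay in the genes and 2 between them. Gabra2 (chr5:70958392-71095849) had 2 MGE body peaks and 3 telencephalon body peaks. Gabrb1 (chr5:71657921-72149572) had a telencephalon body peak and no MGE body peak, and a shared peak lay above its upper end (chr5:72172632-72172940 in the MGE list). Gabra4 had 3 MGE body peaks and 1 telencephalon body peak. Gabrg1 (chr5:70751047-70842617) had none in its window. Its closest MGE peak lay 50613 bp off, just outside the limit. Gabra4 and Gabrb1 overlap by 388 bp, and no peak of either list lay in the overlap.

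In the cluster of chromosome 7, Gabra5 (chr7:57407669-57591016) had 4 MGE and 6 telencephalon body peaks with 3 shared. Its unshared MGE peak at chr7:57539210-57539700 was the widest unshared one near any member, 491 bp, and lay 324 bp from the nearest telencephalon peak. Gabrg3 (chr7:56716463-57387215) had 1 MGE peak, which was shared, and 3 telencephalon peaks.

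In the cluster of chromosome 11, Gabrb2 (chr11:42419515-42632591) had 1 body peak in each list, with no overlap. Its MGE peak at chr11:42519344-42519722 was 379 bp wide and 95735 bp from the nearest telencephalon peak. Gabra6 (chr11:42306437-42321072) had 1 MGE peak in its window, 49977 bp away, which is just inside the limit. The cluster of X, Gabre, Gabra3 and Gabrq, had no peak in any gene. Gabra3 (chrX:72432676-72656919), of 224244 bp, had its nearest MGE peak 75029 bp away and its nearest telencephalon peak 162710 bp away. Gabre (chrX:72256926-72274828) had its closest MGE peak at 82576 bp and its closest telencephalon peak at 233879 bp. Gabrq (chrX:72825163-72842607) had 2 MGE peaks and 1 telencephalon peak near it, with 1 shared. Over all X genes, 53.8% had no window peak in the MGE list and 42.4% in the telencephalon list, beside 17.2% and 15.0% of autosomal genes.

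Of the remaining GABAA genes, Gabrp (chr11:33550781-33578978) had 1 MGE peak near it, which was shared, and 2 telencephalon peaks. Gabrd (chr4:155384979-155398098), a subunit of receptors outside synapses, had no MGE peak in its window and 2 telencephalon peaks. The rho genes are known from the retina. Gabrr1 (chr4:33132556-33163588) had 2 MGE peaks near it, both shared, and 4 telencephalon peaks. Gabrr3 (chr16:59407382-59461739) had 2 MGE and 3 telencephalon peaks with 1 shared. Gabrr2 had 2 in each list, all shared.

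The 2 GABAB genes had more peaks per Mb in their windows than the set as a whole, 14.3 MGE and 28.7 telencephalon peaks per Mb, beside 8.1 and 9.3. These rest on 8 MGE and 16 telencephalon peaks. Windows of all protein-coding genes held 11.7 MGE and 16.4 telencephalon peaks per Mb. Windows of the NMDA genes held 15.0 MGE and 17.7 telencephalon peaks per Mb, and those of the rho genes 13.9 and 22.2. Gabbr2 (chr4:46662318-46991714) had 5 MGE peaks in its window, all shared, and 12 telencephalon peaks. A shared peak lay inside the gene, 1361 bp from its start, at chr4:46990008-46990353 in the MGE list. Wide shared peaks lay at chr4:47037299-47037901 in the MGE list, 603 bp and inside Anks6, and at chr4:46656898-46657471 in the telencephalon list, 574 bp. Gabbr1 (chr17:37045966-37074305) had 3 MGE and 4 telencephalon peaks with 2 shared, and its body peak was shared.

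**Figure D5:**
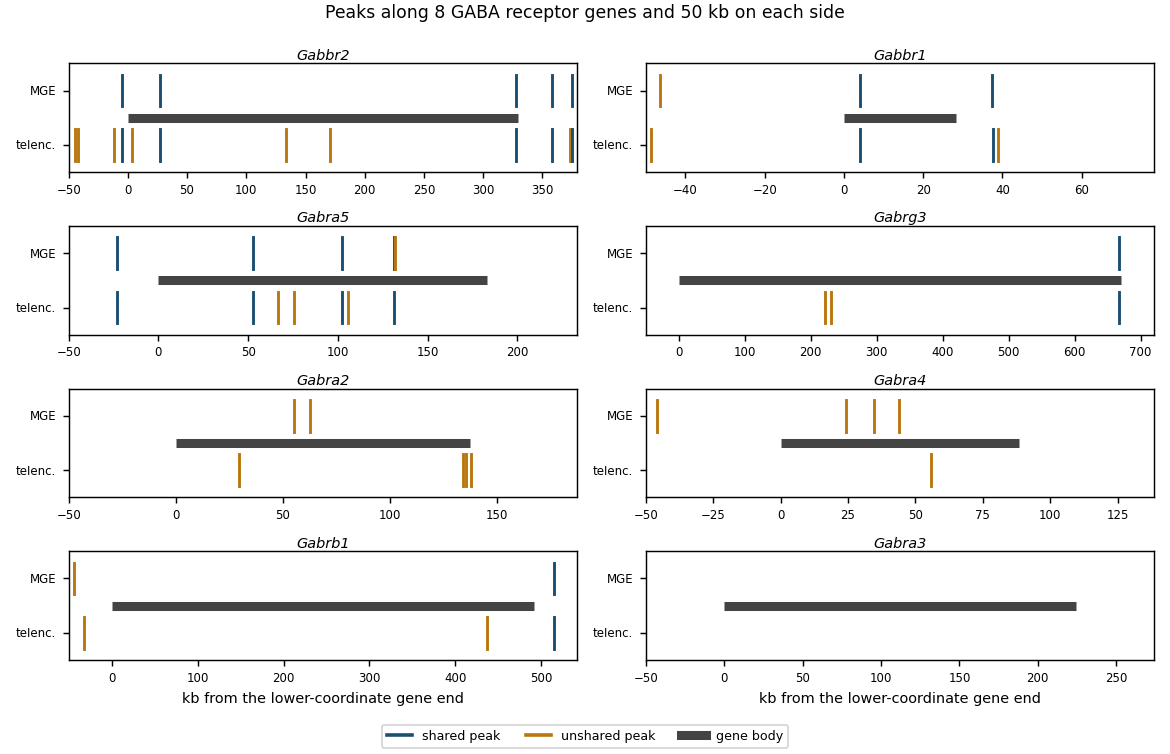
Positions of CTCF peaks along 8 GABA receptor genes and 50 kb on each side, in kb from the gene end with the lower coordinate, with MGE peaks above the gene (grey bar) and telencephalon peaks below, shared peaks in blue and unshared in orange. All 5 MGE peaks of the Gabbr2 window have a telencephalon partner, and no peak of either list lies near Gabra3.

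Few members had a peak within 1 kb of a gene end, 4 in the MGE list (8.51%, 2.37 to 20.4, background 12.1%) and 6 in the telencephalon list (12.8%, 4.83 to 25.7, background 19.3%). Grm8 and Grik4 had an end peak in both lists (4.26%, background 10.5%). The Grm8 peak at chr6:28135959-28136262 in the MGE list lay 813 bp from the annotated start, and its telencephalon partner was chr6:28135887-28136361. Grin3a (chr4:49845676-49845945) and Grik3 (chr4:125714514-125714757) had one only in the MGE list (background 1.58%). Gabra2 (chr5:71096044-71096210), Grin2b (chr6:136173580-136173831), Grik5 (chr7:25009954-25010334) and Grm2 (chr9:106643657-106644011) had one only in the telencephalon list (background 8.79%). A peak overlapped a promoter window in 2 of the 32 members with a sequence in the MGE list (6.25%, background 5.23%) and in 4 in the telencephalon list (12.5%, background 9.17%). A shared peak lay within 5 kb of a promoter in 8 of the 32 in each list (25.0%, 11.5 to 43.4, background 16.0%), namely Gabbr1, Gabbr2, Gabra5, Gabrg3, Gria2, Grik4, Grin2c and Grm8. Within 10 kb it was 12 of the 32 in each list (37.5%, background 24.4%). Both distances were chosen after the values were seen.

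Genes for receptor partners, which traffic, anchor or modulate the receptors, were set beside them. Median length was 97650 bp for glutamate and 90687.5 bp for GABA receptor partners, beside 17169 bp over all protein-coding genes. The backgrounds below are of all protein-coding genes and not matched for length. Of 21 glutamate receptor partners, 13 had a body peak in the MGE list (61.9%, background 31.4%) and 15 in the telencephalon list (71.4%, background 39.1%), and 14 of 21 MGE body peaks were shared (66.7%, 43.0 to 85.4). An end peak was found in both lists for Homer1 and Homer3, scaffolds of group I metabotropic receptors, and for Neto2, an auxiliary subunit of kainate receptors (14.3%, background 10.5%). Of 8 GABA receptor partners, 3 had a body peak in the MGE list and 4 in the telencephalon list (37.5% and 50%, the same backgrounds), and 2 of 7 MGE body peaks were shared (28.6%, 3.67 to 71.0). Kctd16, an auxiliary subunit of GABAB receptors, had an end peak in both lists (12.5%, background 10.5%), and Gabarap, which binds GABAA receptors, in the telencephalon list alone (12.5%, background 8.79%). In 30 genes of other ligand-gated channels, of median length 20256.5 bp, 75.0% of MGE body peaks were shared (50.9 to 91.3). In the 14 receptor genes under 50 kb 3 of 4 were (75.0%, 19.4 to 99.4). In the 18 potassium channel genes of at least 200 kb 30 of 74 were (40.5%, 29.3 to 52.6), and this interval overlaps that of the long receptor genes. In the flanks of these potassium channel genes 68.2% were shared (45.1 to 86.1).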

How the data were processed

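CTCF ChIP-seq peak lists of 1 MGE library and 1 telencephalon library were used. The submitters' processing notes name Bowtie2 2.3.2, MACS2 2.1.1.20160309 and the build mm10. Per the labels, chromatin was sheared to about 500 bp. How peaks were thresholded, against which control and with what filter is not given in the sources used here. The track names differ between the lists (p001 for telencephalon, p01 for MGE), and whether they name thresholds is not stated. The telencephalon track is named e14, while the labels give embryonic day 13.5.

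The deposited lists hold 3 columns and no score. Peaks off chromosomes 1 to 19, X and Y were set aside (MGE 85 of 25710, telencephalon 93 of 31979). Gene positions came from the RefSeq table on GRCm38.p6, which gives no strand, and strand came from the promoter table. A peak was shared when it overlapped the other list by at least 1 bp. A gene's window was its body and 50 kb on each side, and its ends were taken with 1 kb on each side. A peak in the windows of several members was counted once in sums. Peak counting was tested on simulated peaks. Python 3.11.15 with pandas 2.3.3, NumPy 2.4.6 and SciPy 1.17.1 was used.

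Positions were planned for the 2 members with most peaks in each class, those with an end peak, and those with no window peak in a list. Of the 47 members, 5 enter the counts of the set and are not reported singly here. The 10 widest shared and 5 widest unshared peaks of each list within the members' windows were also drawn on. The members and lists were chosen with earlier results of these data known. Alternatives covered the overlap, flank, gene end, peak width and list length.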

Additional observations from a re-analysis of the deposited data

How the results depend on the processing

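Of 112 values under alternative settings, 79 stayed near the main value and 33 moved. Some of the 79 could not move. Cutting the telencephalon list to the number of MGE peaks leaves the MGE list as it was. MGE values that do not use the other list, such as member counts, medians and densities, are then unchanged by construction. A count was taken as near within 1.5 times, and a share or density within the exact 95% interval of the main value, so that small sets could change more before they moved. With the wider 50% of peaks of each list, body peaks were found in 20 members in the telencephalon list and end peaks in 2 in the MGE list. The shared share was then 65.6% (MGE) and 54.1% (telencephalon) in windows and 50% in the bodies in each list. Windows held 3.64 (MGE) and 4.41 (telencephalon) peaks per Mb, with a median of 1 per window in each list. Long members shared 42.9% of MGE body peaks (long genes 56.6%) and had 1.92 (MGE) and 2.01 (telencephalon) per Mb, beside 3.41 and 4.13. A window peak in 1 list alone was found for 8 members (MGE) and 5 (telencephalon). With the widest telencephalon peaks in the number of MGE peaks, telencephalon values were 52.9% shared and 7.21 per Mb in windows, 46.6% shared in bodies, and 3.93 per Mb in long members (long genes 7.22), and 4 members had an MGE peak alone. Without peaks of the narrowest width, MGE values were 65.5% shared and 5.18 per Mb in windows, 49.0% shared in bodies, and 47.1% shared (long genes 64.3%) with 3.1 per Mb (5.29) in long members, and 4 members had a telencephalon peak alone. Within 5 kb of gene ends 13 members had an MGE peak and 21 a telencephalon peak. For the member counts in this paragraph, no share over all protein-coding genes was computed at the same setting. They therefore show only how the count depends on the setting. With 10 kb flanks, windows held 7.73 telencephalon peaks per Mb, and 1 member had an MGE peak alone and 5 a telencephalon peak alone. With 100 kb flanks the MGE median was 4 and 0 members had a telencephalon peak alone. Each cause was not tested. Long members lay below long genes in all 12 values of the shared share and all 8 of density computed. These values include the main ones and reuse the same peaks and shared sites. They are therefore not independent, and the tally is not repeated support. The alternatives on bodies, long members and promoters were chosen after seeing the data. No paired analysis was possible because each tissue has 1 CTCF library, and no replicate could be left out. Depth is unknown, so what it limits could not be measured.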

Other observations

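Some peaks near the receptor genes lay within 2 kb of another peak of the same list. The MGE list held 5 such pairs and the telencephalon list 10. The Gabra2 run given below enters as separate pairs. Pairs were not counted over all peaks, and the telencephalon list is the longer. These counts therefore show nothing particular to the receptor genes or to a tissue. A pair below Grin3b was shared as a whole. In Gabra2 the telencephalon list held 3 peaks in a row near the upper end, of 160, 150 and 167 bp, and none had an MGE partner. In Gabra5 the shared MGE peak at chr7:57538550-57538920 lay 289 bp from an unshared one.

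Of the 66 pairs of shared peaks near the receptor genes, the MGE peak was the wider in 32, the telencephalon peak in 32, and 2 were equal. Among the partner genes, Gphn, which encodes the scaffold gephyrin of inhibitory synapses, had 5 MGE body peaks and 1 telencephalon body peak, none shared. Grip1, a scaffold of AMPA receptors, had 5 MGE and 7 telencephalon body peaks with 3 shared.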
